A study of Mus musculus with 12 samples.

Results

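The genes described here are 10 glutathione S-transferases (GSTs), taken by symbol from the 41325 genes listed for each mouse liver library. They are Gsta1, Gsta2, Gsta3 and Gsta4 of the alpha class, Gstm1, Gstm2, Gstm3 and Gstm4 of the mu class, Gstp1 of the pi class, and Gstt3, which belongs to the theta class and not to the other 3. All 10 had a row in every library and all 10 had enough reads to be tested. On the GRCm38 coordinates of the files, Gsta1, Gsta2 and Gsta4 lie on chromosome 9 between 78182774 and 78355788, Gsta3 lies on chromosome 1 (21240589 to 21265661), the 4 mu genes form a cluster on chromosome 3 (107963696 to 108044894), Gstp1 lies on chromosome 19 (4035407 to 4037921) and Gstt3 on chromosome 10 (75774115 to 75781414).

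Poly(A) RNA was sequenced from 12 livers of wild-type C57BL/6J mice, 4 in each of 3 groups. The CDDO-Me group had nonalcoholic steatohepatitis (NASH), a fatty liver with inflammation and fibrosis, brought on by the CDAHFD diet, and received CDDO-Me (bardoxolone methyl, a synthetic triterpenoid that activates the transcription factor NRF2) by mouth at 10 mg/kg for 8 weeks. The NASH vehicle group had the same diet-induced disease and received vehicle, and the control group received vehicle without NASH. The sources used here do not give the age or sex of the mice, the diet of the controls or the dosing interval.

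GSTs join the tripeptide glutathione to electrophilic drugs, toxins and products of lipid oxidation, which makes them more soluble and marks them for export. In the liver they are abundant cytosolic enzymes, and several genes of the alpha, mu and pi classes are textbook targets of NRF2, which enters the nucleus when electrophiles modify its inhibitor KEAP1 and binds antioxidant response elements. The classes are old gene families that have kept duplicating, so some members have neighbours of nearly the same sequence, and short reads from such pairs cannot always be given to 1 gene.

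The coding sequences show which members this concerns. Gsta1 and its neighbour Gm3776, a protein-coding gene that is not among the 10, differed at 2 of 672 aligned coding bases (99.7% identity) in the GENCODE annotation of GRCm38. Gsta1 and Gsta2 differed at 17 positions (97.5% identity), and Gstp1 and its neighbour Gstp2 at 12 of 633 (98.1%). Coding bases 583 to 657 of the 3 alpha genes, counted from the first base of the Gsta1 start codon, show how little separates them, and capitals mark the positions at which any of the 3 differs:
Gsta1: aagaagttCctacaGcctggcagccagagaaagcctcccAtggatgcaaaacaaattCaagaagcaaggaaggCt
Gm3776: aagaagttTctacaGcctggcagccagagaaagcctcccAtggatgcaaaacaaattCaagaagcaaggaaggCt
Gsta2: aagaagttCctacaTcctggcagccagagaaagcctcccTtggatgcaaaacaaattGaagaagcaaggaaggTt
Over this stretch, as long as 1 sequenced read, Gm3776 differs from Gsta1 at 1 position and Gsta2 at 4. The first 75 coding bases hold 6 of the 12 differences between the pi genes, again in capitals:
Gstp1: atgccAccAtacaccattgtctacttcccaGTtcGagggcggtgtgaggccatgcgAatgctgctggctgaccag
Gstp2: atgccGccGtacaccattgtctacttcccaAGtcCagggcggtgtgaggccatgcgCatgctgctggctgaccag

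The files also count the reads that were placed at 1 position alone. Only 24.9% of the reads given to Gsta1 over the 12 libraries were unique, and 84.7% of the 75-base windows of its transcripts occurred in another annotated gene, 69.3% in Gm3776. These windows treat each read alone, although reads were sequenced in pairs and how mates were used in placing them is not given. Gsta2 had 74.0% unique reads and 36.6% shared windows, and Gstp1 69.6% unique reads and 29.2% shared windows, all with Gstp2. Gsta4 and Gstm4 shared no window and had 1 and 2 reads in all that were not unique. Gstm1 and Gstm3 had 98.6% and 98.3% unique reads, with 11.7% and 21.6% shared windows, some of them shared with each other. Gstm2 had 84.6% unique reads and 1.85% shared windows. Gsta3 had 76.9% unique reads although none of its annotated windows was shared. Gstt3 had 22.5% unique reads, with 11.5% of its windows shared with Gm20441, which overlaps it on the same strand and drew 19 reads in all. Levels of Gsta1, Gsta2, Gsta3, Gstp1 and Gstt3 are therefore uncertain in how reads were divided. For Gsta3 and Gstt3 it is not known where else the reads were placed. Levels below come from all reads. The fold changes of the genes with uncertain levels are given also from unique reads, for CDDO-Me against NASH vehicle and NASH vehicle against control.

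Depth was similar across the study, with 28161057 to 33852338 reads on genes per library, a 1.2-fold range. Of the listed genes, 16456 had enough reads to be tested. Marker genes of smooth muscle, summed as read counts relative to TMM-scaled library size (CPM), reached 178 CPM in CDDO-Me 4, against 27.0 to 63.3 CPM in the other CDDO-Me livers. In control 3 their sum was 473 CPM, against 15.6 to 22 CPM in the other controls. Results that rest on these 2 libraries were therefore also computed without them. No label says whether the 4 samples of a group came from separate cages or litters, so p-values measure the spread between these livers, which may be technical in part.

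All 10 genes had more RNA in CDDO-Me than in NASH vehicle livers. Each passed edgeR's quasi-likelihood test at a Benjamini-Hochberg adjusted p under 0.05 (the threshold for every call here), and 0 fell, where 16.6% of the 16456 tested genes were called, 9.39% higher and 7.24% lower. In all 10 the lowest CDDO-Me liver stood above the highest NASH vehicle liver, as it did for 11.4% of tested genes, while 10.2% lay lower without overlap. The log2 fold changes of the 10 ran from 1.11 to 4.05 with a median of 2.50, beside a median of -0.01 over all tested genes. The 10 calls also held without CDDO-Me 4 and control 3.

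**Figure D1:**
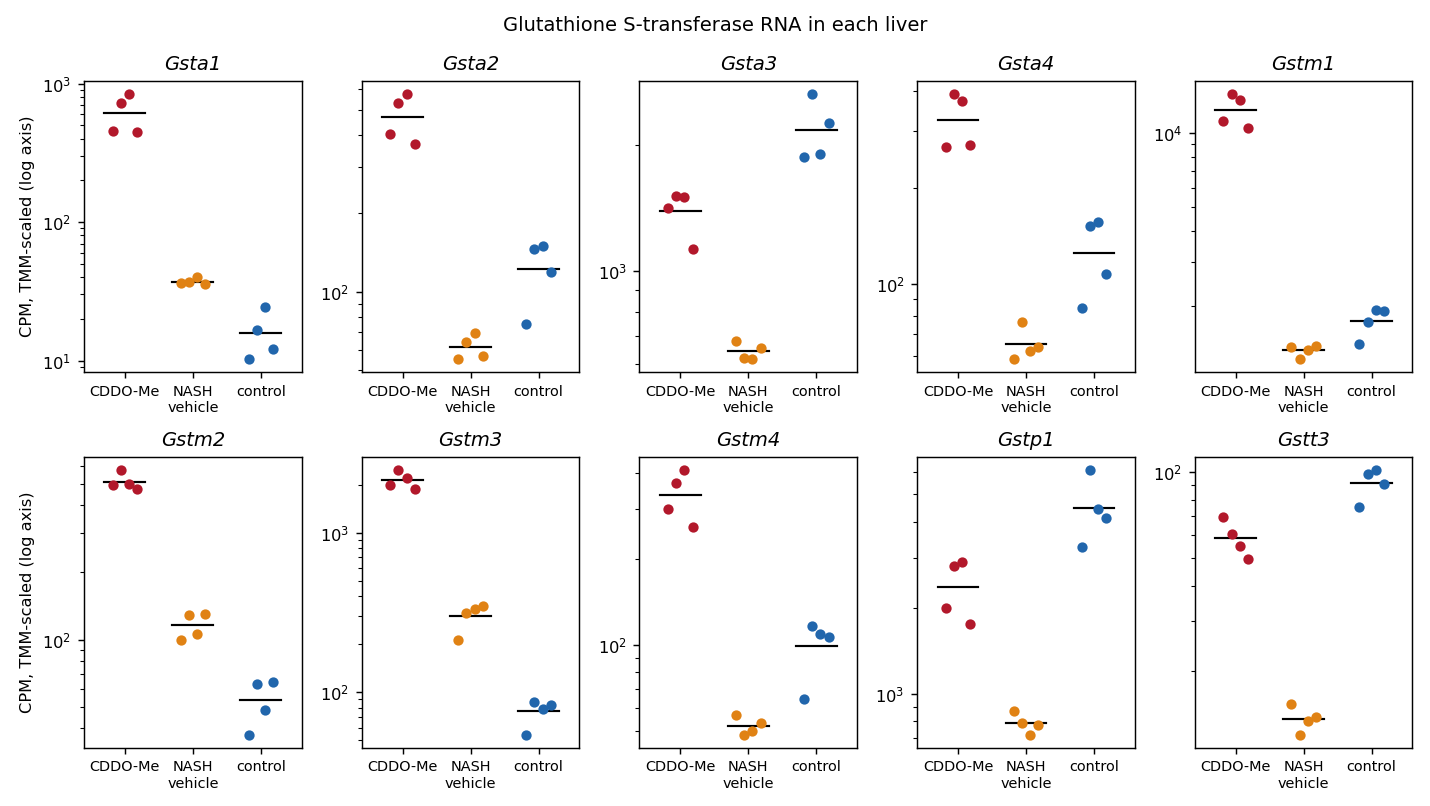
Each panel shows 1 gene on a log axis of TMM-scaled CPM, with a point per liver (CDDO-Me, NASH vehicle, control, 4 each) and a line at the group mean. In each panel the 4 CDDO-Me livers lie above the 4 NASH vehicle livers, while the controls lie above the CDDO-Me livers in Gsta3, Gstp1 and Gstt3 and below them in the other panels.

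Gsta1 had the largest rise of the alpha members in CDDO-Me over NASH vehicle livers. Gsta1 and Gsta2 encode closely related enzymes that conjugate electrophiles and reduce lipid hydroperoxides. Gsta1 stood at 456, 724, 837 and 449 CPM in CDDO-Me livers 1 to 4, against 36.4, 36.7, 39.9 and 35.4 CPM in NASH vehicle livers and 10.3, 16.7, 24.3 and 12.1 CPM in control livers. The 3 groups did not overlap, and the lowest level was in controls. Its log2 fold change was 4.05 ± 0.29 for CDDO-Me against NASH vehicle, 16.6-fold, with an adjusted p of 2.73e-06 in edgeR's quasi-likelihood test (SE, here and below, was derived from the test as |log2 fold change| over √F and was not fitted by the model). NASH vehicle livers in turn held more Gsta1 RNA than controls, by 1.23 ± 0.26 on the log2 scale (edgeR adjusted p = 0.00144). Unique reads alone gave 3.89 ± 0.28 and 1.38 ± 0.29 for these comparisons.

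Gm3776, the near copy of Gsta1, followed it closely. It had 473, 799.7, 881 and 413 CPM in CDDO-Me livers, 37.4, 38.6, 38.6 and 36.5 CPM in NASH vehicle livers and 7.07, 12.5, 16.4 and 7.65 CPM in control livers. With 15.1% unique reads, its level is uncertain too, but its unique reads alone rose by 4.38 ± 0.32 on the log2 scale in CDDO-Me over NASH vehicle (edgeR adjusted p = 5.93e-06). The reads of both genes summed, an analysis chosen after seeing the data, gave log2 fold changes of 4.07 ± 0.30 for CDDO-Me against NASH vehicle, 1.48 ± 0.28 for NASH vehicle against control and 5.55 ± 0.32 for CDDO-Me against control.

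Gsta2 had a higher level than Gsta1 in controls and the opposite sign in NASH. It stood at 403, 530.4, 572 and 369 CPM in CDDO-Me livers, against 55.4, 64.2, 69.3 and 56.7 CPM in NASH vehicle livers and 75.6, 147, 150.2 and 119 CPM in control livers. Its rise in CDDO-Me over NASH vehicle was 2.93 ± 0.22 on the log2 scale, 7.63-fold (edgeR adjusted p = 2.33e-06), and 2.90 ± 0.21 from unique reads. NASH vehicle livers were lower than controls by TMM-scaled reads, with a log2 fold change of -1.0 ± 0.20 (edgeR adjusted p = 8.28e-04), a call that was lost with library totals alone and on the TPM scale. Unique reads gave -0.94 ± 0.20.

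Gsta3 encodes the alpha enzyme that dominates in the normal mouse liver and that detoxifies the epoxide of aflatoxin. It had 1411, 1510.2, 1501 and 1131 CPM in CDDO-Me livers, against 681, 619, 617 and 656 CPM in NASH vehicle livers and 1869, 2644, 1906 and 2257 CPM in control livers. In CPM, CDDO-Me livers thus lay between the other groups without overlap. By TPM their range of 735 to 881 lay within the 690 to 995 TPM of controls. The log2 fold change was 1.11 ± 0.15 for CDDO-Me against NASH vehicle (edgeR adjusted p = 2.56e-04), the smallest rise of the 10, and -1.75 ± 0.15 for NASH vehicle against control (edgeR adjusted p = 6.21e-07). Unique reads gave 1.08 ± 0.15 and -1.81 ± 0.15 for these comparisons. With library totals the log2 fold change of NASH vehicle against control was -1.12 and on the TPM scale -0.93. A gene on the opposite strand, Gm28836, overlaps Gsta3, and whether the counting used strand is not given in the sources used here, so reads of the pair cannot be told apart.

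Gsta4 encodes the enzyme specialised in 4-hydroxynonenal, an aldehyde formed when lipids are oxidised. CDDO-Me livers had 267, 390.3, 371 and 271 CPM, against 58.7, 76.7, 62.1 and 64 CPM in NASH vehicle livers and 84.3, 152, 156 and 108 CPM in control livers. With 1 of its 62575 reads not unique, Gsta4 is the alpha gene whose reads are least open to misplacement. It rose 4.97-fold in CDDO-Me over NASH vehicle, 2.31 ± 0.20 on the log2 scale (edgeR adjusted p = 1.08e-05). Against control, NASH vehicle livers were lower, with a log2 fold change of -0.94 ± 0.20 (edgeR adjusted p = 0.00101), again a call that was lost with library totals alone and on the TPM scale.

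The mu genes held the most RNA of the 4 classes in CDDO-Me livers. Gstm1, the main mu enzyme of mouse liver, stood at 11153, 14284, 13571 and 10399.5 CPM in CDDO-Me livers, against 1369, 1223, 1332 and 1376 CPM in NASH vehicle livers and 1407, 1724, 1930.2 and 1914 CPM in control livers. Each CDDO-Me liver was far above every other liver. The rise was 3.22 ± 0.17 on the log2 scale over NASH vehicle, 9.32-fold (edgeR adjusted p = 1.49e-07), and 2.82 ± 0.17 over control (edgeR adjusted p = 6.10e-08). Between NASH vehicle and control the log2 fold change was -0.40 ± 0.16 (edgeR adjusted p = 0.0435), and the sign turned to 0.23 with library totals and 0.44 on the TPM scale. That call also ended without control 3 and CDDO-Me 4, at -0.34 with an edgeR adjusted p of 0.0914. Over all alternatives, of either sign, the adjusted p ran from 0.00870 to 0.116. On the TPM scale, where the sign was positive, the limma adjusted p was 0.00878. The lower call also ended on leaving out any single library among NASH vehicle 2, 3 and 4 and control 2, 3 and 4. The log2 fold changes were then -0.41 to -0.35.

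Gstm2 and Gstm3 were the 2 mu genes that were higher in NASH vehicle than in control livers. Gstm2 had 492, 575, 499 and 474 CPM in CDDO-Me livers, against 99, 129, 106 and 129.9 CPM in NASH vehicle livers and 37.5, 63.1, 48.2 and 64.6 CPM in control livers. Gstm3 had 1989.6, 2468, 2206 and 1870.1 CPM in CDDO-Me livers, against 212, 315, 333 and 345 CPM in NASH vehicle livers and 54.3, 87.2, 78.5 and 82.9 CPM in control livers. In both genes every CDDO-Me liver lay above every NASH vehicle liver, and every NASH vehicle liver above every control. For NASH vehicle against control the log2 fold change was 1.12 ± 0.16 for Gstm2 (edgeR adjusted p = 5.76e-05) and 1.99 ± 0.19 for Gstm3 (edgeR adjusted p = 1.46e-06). For CDDO-Me against NASH vehicle it was 2.13 ± 0.17 for Gstm2 and 2.82 ± 0.19 for Gstm3 (edgeR adjusted p = 3.53e-06 and 1.05e-06). Against control, Gstm3 in CDDO-Me livers was 28.2-fold higher, second among the 10 to the 38.8-fold of Gsta1.

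Gstm4, in the same cluster as Gstm1, shared 80.2% of coding bases with it, while Gstm3 shared 89.5% with Gstm1. It had 300.4, 370.2, 411 and 258 CPM in CDDO-Me livers, against 56.9, 48.4, 49.9 and 53 CPM in NASH vehicle livers and 64.5, 116, 109 and 106 CPM in control livers. The rise over NASH vehicle was 2.69 ± 0.19 on the log2 scale, 6.44-fold (edgeR adjusted p = 1.31e-06). NASH vehicle livers were below controls, with a log2 fold change of -0.93 ± 0.18 (edgeR adjusted p = 5.60e-04), and this call too was lost with library totals alone and on the TPM scale.

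Gstp1, the main pi class enzyme of mouse liver, had 1993, 2805, 2892 and 1754 CPM in CDDO-Me livers, against 870.1, 790.1, 719.5 and 775 CPM in NASH vehicle livers and 3263, 6079, 4419.7 and 4137 CPM in control livers. Every NASH vehicle liver was lower than every other liver. NASH vehicle was 5.67-fold lower than control, -2.50 ± 0.22 on the log2 scale (edgeR adjusted p = 7.57e-07). With library totals the log2 fold change of NASH vehicle against control was -1.87 and on the TPM scale -1.64. CDDO-Me livers were 2.99-fold higher than NASH vehicle, 1.58 ± 0.21 (edgeR adjusted p = 2.91e-04). They remained below control by TMM-scaled reads, at -0.92 ± 0.21 (edgeR adjusted p = 0.00239), a call that was lost on the TPM scale, where the log2 fold change was -0.32. Unique reads gave 1.59 ± 0.21, -2.54 ± 0.21 and -0.95 ± 0.20 for CDDO-Me against NASH vehicle, NASH vehicle against control and CDDO-Me against control.

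Gstp2, the near copy of Gstp1, held far less RNA. It had 54.6, 94.1, 86.5 and 78.4 CPM in CDDO-Me livers, 9.90, 11, 14.6 and 13.3 CPM in NASH vehicle livers and 7.34, 13.4, 24.3 and 19.1 CPM in control livers. It rose by 2.68 ± 0.31 in CDDO-Me over NASH vehicle (edgeR adjusted p = 2.25e-04), while NASH vehicle against control gave -0.39 ± 0.31 and missed the threshold (edgeR adjusted p = 0.287). From unique reads the second value was 0.20 ± 0.42. The difference between the genes in these fold changes was not tested.

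Gstt3, a theta class gene, had the lowest TPM of the 10 in the CDDO-Me and NASH vehicle groups. It had 69.8, 60.7, 55.1 and 49.7 CPM in CDDO-Me livers, against 15.3, 12, 13.4 and 13.8 CPM in NASH vehicle livers and 75.4, 98.7, 102 and 91.4 CPM in control livers. The groups did not overlap in CPM, and NASH vehicle was lowest. By TPM the CDDO-Me and control ranges overlapped, at 32.2 to 51.3 and 32.3 to 50.8 TPM. Its fall in NASH vehicle, -2.75 ± 0.13 on the log2 scale or 6.75-fold, was the largest of the 10 (edgeR adjusted p = 6.61e-09). With library totals the log2 fold change of NASH vehicle against control was -2.13 and on the TPM scale -1.84. CDDO-Me livers were 4.32-fold above NASH vehicle, at 2.11 ± 0.13 (edgeR adjusted p = 3.70e-07). Unique reads, which are few for this gene, gave 2.00 ± 0.16 for CDDO-Me against NASH vehicle and -2.75 ± 0.17 for NASH vehicle against control.

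Across the 10, NASH vehicle against control divided the genes. Gsta1, Gstm2 and Gstm3 were higher and the other 7 lower by TMM-scaled reads, of which Gstm1 changed sign with library totals and on the TPM scale. In CPM the groups overlapped in none of the 10, while by TPM the ranges of Gsta2, Gsta4, Gstm1 and Gstm4 overlapped. Of all tested genes, 59.7% were called in this comparison, 29.6% higher and 30.0% lower, and 27.0% and 27.4% were higher and lower without overlap. A share of called genes this large means that a call alone sets no member apart. The median log2 fold change of the 10 was -0.93, beside -0.01 over all tested genes. Summed markers of hepatocytes, the cells that hold most liver GST, were at 49699.8 to 77636 CPM in NASH vehicle livers against 111668 to 134899 CPM in controls, with 18 of 19 hepatocyte markers lower and 0 higher (12 lower and 2 higher with library totals, 11 and 2 on the TPM scale). Summed macrophage markers were at 2348 to 3944 CPM in NASH vehicle livers against 181 to 292 CPM in controls, with 14 of 15 higher. Stellate cell and fibroblast markers summed to 1677 to 2497 CPM in NASH vehicle livers against 292 to 464 CPM in controls, with 9 of 10 higher. Cholangiocyte markers were higher in 5 of 10, at 491 to 1143 CPM in NASH vehicle livers against 60.3 to 406 CPM in controls, and in 10 of 10 without control 3 and CDDO-Me 4. Sinusoidal endothelial markers were lower, at 203 to 256 CPM in NASH vehicle livers against 295 to 334 CPM in controls, with 6 of 10 lower and 1 higher and a median log2 fold change of -0.93, or 5 lower and 2 higher with library totals and 5 and 3 on the TPM scale. None of the hepatocyte, macrophage, stellate or endothelial markers was at 0 in any library, and 1 cholangiocyte marker was at 0 in each control. Intron reads made up 4.45% to 6.57% of gene reads in NASH vehicle livers and 3.06% to 4.14% in controls, without overlap, and 4.50% to 6.31% in CDDO-Me livers. In bulk liver, fewer cells of a type and less RNA per cell cannot be told apart, and the part of these shifts in the differences from control was not tested.

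For CDDO-Me against NASH vehicle the same marker sums were 52635 to 75208 CPM in CDDO-Me livers and 49699.8 to 77636 CPM in NASH vehicle livers for hepatocytes. These ranges overlap, and 4 of 19 markers were called higher and 2 lower, beside 9.39% higher and 7.24% lower of all tested genes. With library totals and on the TPM scale the counts were 4 and 4. The macrophage sum was lower, at 1313 to 2136 CPM in CDDO-Me livers against 2348 to 3944 CPM in NASH vehicle livers, with 10 of 15 markers lower and 0 higher. Stellate cell and fibroblast markers summed to 839 to 1472 CPM in CDDO-Me livers against 1677 to 2497 CPM in NASH vehicle livers, with 6 of 10 lower. Markers of sinusoidal endothelial cells were higher, summing to 274 to 393 CPM in CDDO-Me livers against 203 to 256 CPM in NASH vehicle livers, with 7 of 10 higher and 0 lower and a median log2 fold change of 0.89. With library totals that count was 7 and 0, and on the TPM scale 7 and 1. Cholangiocyte markers overlapped, at 402 to 901 CPM in CDDO-Me against 491 to 1143 CPM in NASH vehicle livers, with 1 of 10 lower, or 5 of 10 without control 3 and CDDO-Me 4. The part of these shifts in the rise of the 10 genes was not tested.

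CDDO-Me against control set 7 genes higher and 3 lower by TMM-scaled reads, again without overlap in CPM in any of the 10. Of all tested genes 49.8% were called, 26.2% higher and 23.6% lower, and 22.6% and 21.1% were higher and lower without overlap. The 4 mu genes and Gsta1, Gsta2 and Gsta4 were the higher ones, at log2 fold changes of 1.38 for Gsta4 to 5.28 for Gsta1. Gsta3, Gstp1 and Gstt3 were lower, at -0.64 ± 0.15, -0.92 ± 0.21 and -0.64 ± 0.12 (edgeR adjusted p = 0.00236, 0.00239 and 6.28e-04). These lower calls numbered 1 with library totals and 0 on the TPM scale. By TPM the ranges of all 3 overlapped with those of controls. For Gstp1 they were 7102 to 9034 TPM in CDDO-Me livers against 7140 to 13303 TPM in controls. Hepatocyte markers were lower in CDDO-Me livers than in controls as well, 16 of 19 with 0 higher, or 13 lower and 3 higher with library totals and on the TPM scale. The 3 comparisons share groups with each other and are not independent.

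**Figure D2:**
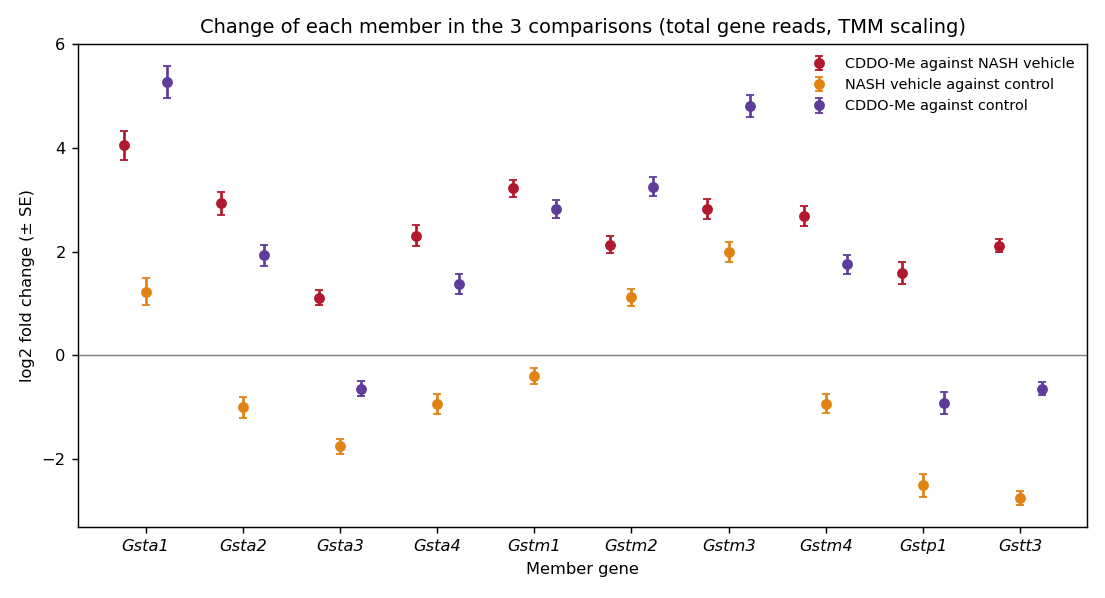
Points give the log2 fold change of each gene in the 3 comparisons from TMM-scaled total gene reads, with bars of 1 SE. CDDO-Me against NASH vehicle lies above 0 for all 10 genes, while NASH vehicle against control lies above 0 for Gsta1, Gstm2 and Gstm3 only with this scaling (Gstm1 lies above 0 with library totals and on the TPM scale).

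How the libraries are scaled bears on the 2 comparisons with control. With library totals in place of TMM the median of all tested genes moved to -0.16 for CDDO-Me against NASH vehicle, 0.62 for NASH vehicle against control and 0.51 for CDDO-Me against control. On the log2(TPM + 1) scale it was -0.19, 0.58 and 0.43. Relative to those medians the signs of the 10 did not turn in any of the 3 comparisons. With TMM the medians were -0.01, -0.01 and 0.03 for these comparisons. Subtracting a median thus nearly repeats the TMM scaling and cannot decide between the scalings. TMM factors were 1.11 to 1.31 in NASH vehicle livers and 0.73 to 0.83 in control livers. Gstm1 in NASH vehicle against control was at -0.39 relative to the median with library totals and at -0.13 on the TPM scale, and Gsta2 was at -0.99 and -0.74. Gstp1 in CDDO-Me against control was at -0.98 and -0.74, Gsta3 at -0.68 and -0.51, and Gstt3 at -0.68 and -0.48. The rises over control were larger without TMM, and in NASH vehicle against control Gsta1, Gstm2 and Gstm3 were at 1.85, 1.76 and 2.64 with library totals and 2.08, 1.97 and 2.81 on the TPM scale. In CDDO-Me against control the 7 higher genes ran from 1.82 to 5.71 with library totals and from 2.01 to 5.85 on the TPM scale. Taken as they stand, not relative to the medians, the calls in NASH vehicle against control were 3 higher and 3 lower genes with library totals and 4 higher and 3 lower on the TPM scale, where the fourth higher gene was Gstm1. The lower genes under both were Gsta3, Gstp1 and Gstt3. The shares of all genes called, given above, are from TMM-scaled reads. Those under the other scalings are not given here, so these counts cannot be set against them.

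**Figure D3:**
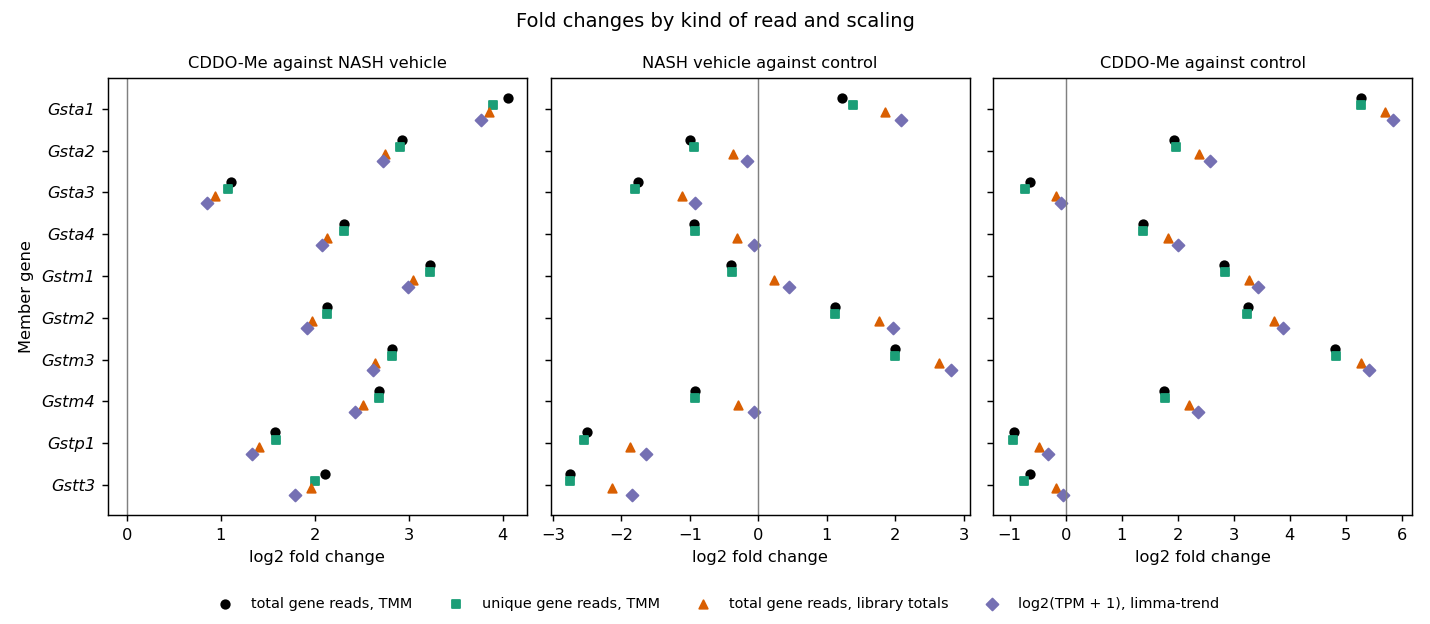
Log2 fold changes of the 10 genes in 3 panels, 1 per comparison, from total gene reads with TMM, unique gene reads with TMM, total gene reads with library totals, and log2(TPM + 1). The 4 measures all lie above 0 for each gene in CDDO-Me against NASH vehicle; library totals and TPM lie to the right of the TMM values in both comparisons with control, and for Gstm1 in NASH vehicle against control they lie on the other side of 0.

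TPM as the authors gave them, which scale reads by the exon length listed for each gene, show the make-up of the 10 members in each group. That length was 4344 bases for Gsta3 and 3842 for Gstt3, against 956 for Gsta1 and 757 for Gstp1. Their coding lengths were 666, 726, 672 and 633 bases. Shares and ranks by TPM therefore depend on the listed exon lengths. The 10 genes held 3.92%, 4.32%, 3.96% and 3.82% of all TPM in CDDO-Me livers 1 to 4, against 0.742%, 0.738%, 0.879% and 0.814% in NASH vehicle livers and 0.983%, 1.70%, 1.55% and 1.35% in control livers. Within that pool, the mu genes held 69.3% ± 2.33 in CDDO-Me, 48.0% ± 2.45 in NASH vehicle and 17% ± 2.68 in control livers (SD, n = 4 each). Gstp1 ran the other way, with 20.3% ± 1.59 in CDDO-Me, 40.8% ± 2.59 in NASH vehicle and 73.8% ± 3.06 in control livers. The alpha members held 10.4% ± 0.789 in CDDO-Me, 11.1% ± 0.439 in NASH vehicle and 8.91% ± 0.431 in control livers. Among these members the highest TPM was that of Gsta1 in CDDO-Me livers and of Gsta3 in the other groups. In CPM, which does not use exon length, Gsta3 was above Gsta1 in CDDO-Me livers too, with means of 1388 and 616 CPM. Of the Gsta1 reads in CDDO-Me livers 24.7% were unique. Gm3776, the near copy of Gsta1, is outside this pool and would add to the alpha share. It averaged 1893 TPM in CDDO-Me, 134 TPM in NASH vehicle and 22.2 TPM in control livers.

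**Figure D4:**
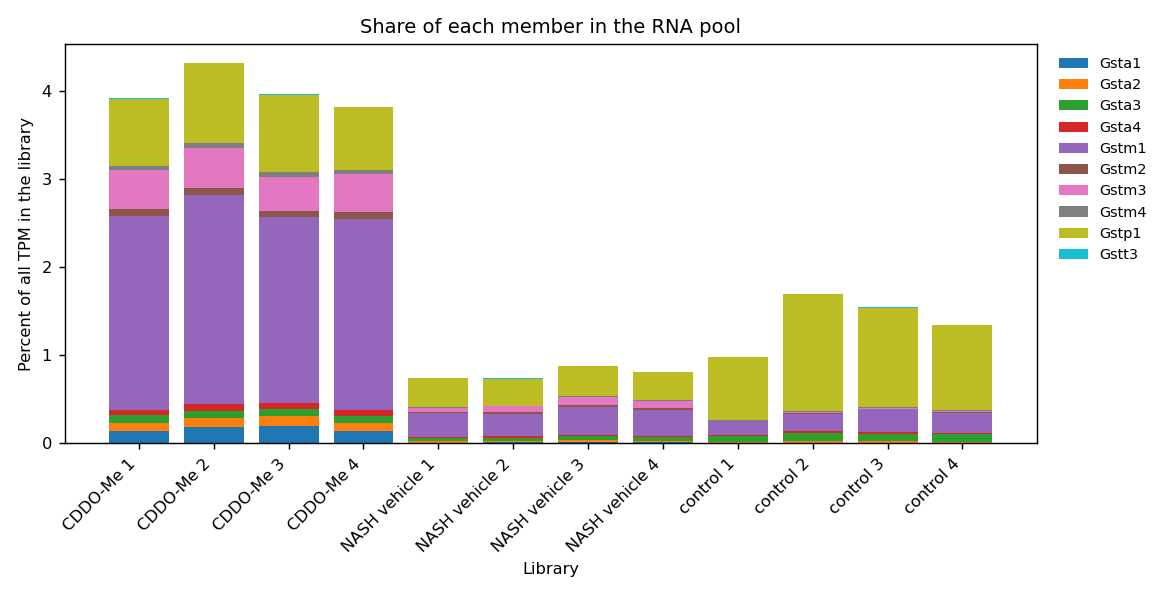
Stacked bars give the percent of all TPM held by each of the 10 genes in each library, CDDO-Me 1 to 4, then NASH vehicle 1 to 4, then control 1 to 4. The bars reach 3.82% to 4.32% in CDDO-Me, 0.738% to 0.879% in NASH vehicle and 0.983% to 1.70% in control livers, with Gstm1 the widest band in CDDO-Me and Gstp1 in control livers.

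The order of the 10 by mean TPM differed between groups. It depends on the listed exon lengths and on how reads that were not unique were divided. In CDDO-Me livers Gstm1 led with 22138 ± 1088 TPM (SD, n = 4), followed by Gstp1 with 8130.5 ± 924, Gstm3 with 4265 ± 305, Gsta1 with 1669 ± 309.8 and Gsta2 with 1015 ± 82.8 TPM, each without overlap with the next. Gstm2, Gsta3 and Gsta4 followed with overlapping ranges, then Gstm4, and Gstt3 was last with 40.3 ± 8.02 TPM. In NASH vehicle livers Gstp1, at 3222 ± 126 TPM, and Gstm1, at 2798 ± 332 TPM, overlapped, as did Gstm3 with Gsta3. Gstm2, Gsta4, Gsta2 and Gsta1 each overlapped with the next, between 214 ± 32 and 121 ± 17.7 TPM. In control livers Gstp1 led with 10330.0 ± 2605 TPM, then came Gstm1 with 2079.6 ± 413 and Gsta3 with 852 ± 127 TPM, and Gsta1 was last with 29.6 ± 13.8 TPM, in a range that overlapped with that of Gstt3. Among all listed genes Gstm1 ranked 4 to 6 by TPM in CDDO-Me livers, 34 to 47 in NASH vehicle livers and 61 to 75 in control livers.

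The 10 genes also varied together between livers of 1 group. CDDO-Me 2 lay above its group mean of log2 CPM in 10 of 10 genes and CDDO-Me 4 below it in 10 of 10, with median deviations of 0.21 and -0.26. Control 1 lay below its group mean in 10 of 10, with a median of -0.46. NASH vehicle livers showed no such shift, with 4 to 6 genes above the mean in each. TMM factors were 0.999 in CDDO-Me 2 and 1.2 in CDDO-Me 4, and 0.77 in control 1, beside 0.73 to 0.83 over the controls, and their part in these shifts was not tested. Summed hepatocyte markers were 58134, 75208, 67757 and 52635 CPM in CDDO-Me livers 1 to 4, in the same order as the median deviations of the 10 genes (-0.13, 0.21, 0.18 and -0.26). Stellate sums in these livers were 1203, 912, 839 and 1472 CPM and cholangiocyte sums 791, 429, 402 and 901 CPM, both lower in livers 2 and 3, where the 10 genes were higher. In controls 1 to 4 the hepatocyte sums were 119486, 134899, 111668 and 122434 CPM, not in the order of the median deviations (-0.46, 0.27, 0.16 and 0.04). In NASH vehicle livers 1 to 4 the hepatocyte sums were 77636, 55884, 49699.8 and 55791 CPM. Their order also differed from that of the median deviations (0.01, -0.004, -0.04 and 0.03). The part of these marker sums was not tested either. Over the 12 libraries the 45 pairs of genes correlated at -0.25 to 0.99 with a median of 0.72, and after taking each library's deviation from its group mean at 0.19 to 0.91 with a median of 0.60. These are descriptions over libraries that share their scaling, not tests.

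By correlation of log2 CPM over the 12 libraries, the genes most like the highest member of each class were sought among 8685 genes outside the 10. Gstm1 was closest to Cbr1 (Pearson r = 0.99), which encodes a carbonyl reductase, and then to Ces1g, Nt5e, Ces2c and Cyp2a5, of which Cyp2a5, a cytochrome P450 gene, stood at 7725 ± 1424 CPM in CDDO-Me, 247 ± 45.6 CPM in NASH vehicle and 203 ± 65.8 CPM in control livers (SD, n = 4 each). Outside the 10, Gsta3 was closest to Pls3, Dpm1, Mettl26 and Akr1c12, and Gstp1 to Dpm1, Uqcrfs1, Pls3, Abhd11 and Car8, at r of 0.98 to 0.99. Gstt3 was closest to Akr1d1 (r = 0.98), Fgf1, Gpd1l and Car8. Among the 10 themselves, Gsta3 and Gstp1 correlated at 0.99, above any of those 8685 genes for either, and Gsta3 and Gstt3 at 0.97.

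Another 19 genes, listed as glutathione transferases or their relatives (such as Alox5ap), could be tested. In CDDO-Me against NASH vehicle 8 were higher and 1 lower, beside 9.39% higher and 7.24% lower of all tested genes. The median log2 fold change was 0.44. Among the 8 are Gm3776 and Gstp2, near copies of Gsta1 and Gstp1 with 15.1% and 52.1% unique reads, so they are not separate from those members. After Gm3776 at 4.09 ± 0.31 (edgeR adjusted p = 6.55e-06), the lowest p-values were those of Mgst3, a microsomal transferase at 1.75 ± 0.17, Gstp2, Gsto1 of the omega class at 1.24 ± 0.17, Hpgds at -1.77 ± 0.27 and Gstt1 of the theta class at 0.61 ± 0.10 (edgeR adjusted p = 2.30e-05 for Mgst3, 4.03e-04 for Gsto1, 7.75e-04 for Hpgds and 0.00124 for Gstt1). Hpgds, the prostaglandin D synthase of blood-derived cells, is the 1 that fell, at 4.59 ± 1.64 CPM in CDDO-Me against 15.7 ± 3.72 CPM in NASH vehicle livers (SD, n = 4 each). The macrophage marker sum given above was lower too, and a link between them was not tested. Gstm5 and Gstm7, from the same cluster as the mu members, missed the threshold in this comparison, at -0.16 ± 0.14 and 0.01 ± 0.18 (edgeR adjusted p = 0.478 and 0.974), and Gstm6 rose by 0.61 ± 0.13 (edgeR adjusted p = 0.00687). These 3 were named after their values were seen.

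In NASH vehicle against control, 5 of the 19 were higher and 7 lower, beside 29.6% higher and 30.0% lower of all tested genes. These counts alone do not set the list apart. They were 7 higher and 6 lower with library totals and 7 higher and 5 lower of 18 on the TPM scale. Hpgds rose by 4.28 ± 0.32 and Alox5ap, which activates 5-lipoxygenase in leukocytes, by 4.35 ± 0.45 on the log2 scale (edgeR adjusted p = 2.28e-07 and 1.01e-05). The macrophage marker sum was higher too, and a link to it was not tested. Gstt1, Gsto1, Gstk1 of mitochondria and peroxisomes, and Gstz1 of tyrosine breakdown were lower, at -1.26 ± 0.10, -1.54 ± 0.17, -1.32 ± 0.15 and -1.07 ± 0.15 (edgeR adjusted p of 4.09e-07 to 4.54e-05). On the TPM scale these 4 were at -0.46, -0.70, -0.50 and -0.26, and with no filter on that scale the call of Gstz1 was lost (limma adjusted p = 0.0560). Genes on the opposite strand overlap Gsto1, Gstz1 and Alox5ap, and their reads cannot be told apart. In CDDO-Me against control 7 were higher and 4 lower, with Mgst3 at 2.30 ± 0.17, Hpgds at 2.51 ± 0.31, Alox5ap at 4.00 ± 0.45 and Gstp2 at 2.29 ± 0.31 (edgeR adjusted p of 4.64e-07 to 1.01e-04). By TMM-scaled reads 26.2% of all tested genes were higher and 23.6% lower in this comparison. With library totals the split of the 19 was 9 higher and 3 lower, and on the TPM scale 10 higher and 1 lower of 18. Under both, Gstt1, at -0.65 ± 0.10 by TMM-scaled reads (edgeR adjusted p = 1.42e-04), lost its call.

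**Figure D5:**
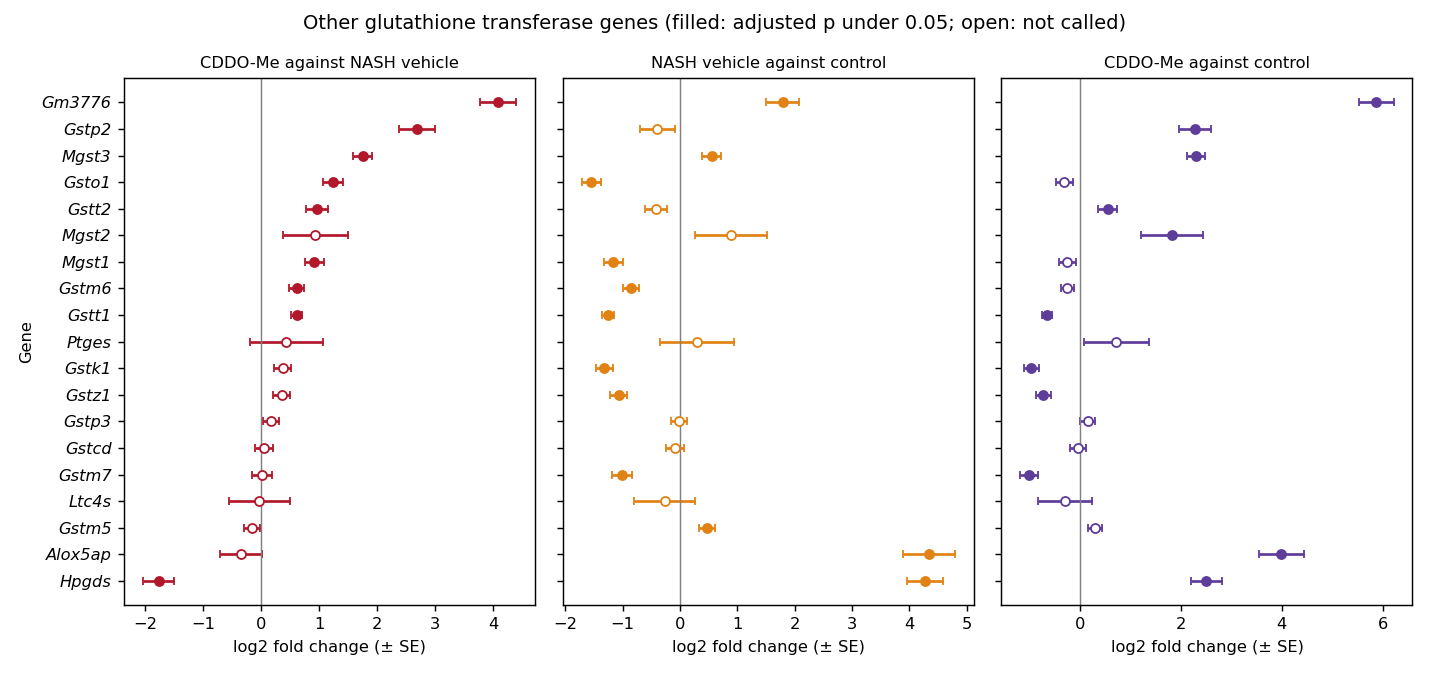
Log2 fold changes with bars of 1 SE in the 3 comparisons for the 19 other tested genes, listed as glutathione transferases or their relatives. Points are filled where the adjusted p was under 0.05 and open otherwise. Gm3776 lies farthest to the right and Hpgds farthest to the left in CDDO-Me against NASH vehicle, and Hpgds and Alox5ap lie farthest to the right in NASH vehicle against control.

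GSTs use glutathione, and 22 genes of its synthesis, recycling, breakdown and conjugate export were tested. CDDO-Me was higher than NASH vehicle in 14 and lower in 1, beside 9.39% higher and 7.24% lower of all tested genes. The median log2 fold change was 0.88. The lower gene, named after its value was seen, was Dpep1, a dipeptidase, at -1.42 ± 0.38 (edgeR adjusted p = 0.0223). Gclc and Gclm, the catalytic and modifier subunits of the enzyme that starts glutathione synthesis, rose by 2.72 ± 0.18 and 1.28 ± 0.11, and Gsr, which regenerates reduced glutathione, by 1.40 ± 0.14 (edgeR adjusted p = 9.11e-07, 8.90e-06 and 2.51e-05). Of the reads given to Gclm, 35.7% were unique in CDDO-Me, 37.9% in NASH vehicle and 39.6% in control livers. Slc7a11, which imports cystine, rose by 3.98 ± 0.37, and the exporters Abcc4 and Abcc3 by 4.72 ± 0.26 and 1.46 ± 0.17 (edgeR adjusted p = 5.32e-05, 3.70e-07 and 7.84e-05). Gclc averaged 1766 ± 412 CPM in CDDO-Me livers, 269 ± 41.8 CPM in NASH vehicle livers and 484 ± 45 CPM in control livers (SD, n = 4 each).

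In NASH vehicle against control, 10 of these 22 were higher and 7 lower, beside 29.6% higher and 30.0% lower of all tested genes. The counts were 14 higher and 4 lower with library totals, and 15 and 3 on the TPM scale. The exporters Abcc5 and Abcc1 rose by 3.33 ± 0.22 and 3.52 ± 0.26 and Slc7a11 by 5.29 ± 0.60 (edgeR adjusted p = 1.15e-07, 3.00e-07 and 1.80e-05). Slc7a11 had 18 reads over the 4 controls. Nat8, which acetylates cysteine conjugates, fell to 4.74 ± 0.862 CPM in NASH vehicle livers, against 20.7 ± 5.79 CPM in control livers (edgeR adjusted p = 4.31e-06). Lap3 and Chac2, which take part in glutathione breakdown, had log2 fold changes of -1.40 ± 0.16 and -1.06 ± 0.14 (edgeR adjusted p = 9.23e-06 and 2.48e-05). Gclc, Gclm and Gsr were at -0.85 ± 0.17, -0.66 ± 0.11 and -0.21 ± 0.14 (edgeR adjusted p = 8.46e-04, 1.61e-04 and 0.198). With library totals the calls of Gclc and Gclm were lost and Gsr was higher at 0.42, and on the TPM scale Gclm was at 0.16 and Gsr higher at 0.60. In CDDO-Me against control 13 were higher and 2 lower, beside 26.2% higher and 23.6% lower of all tested genes. Both with library totals and on the TPM scale the counts were 18 and 1. Abcc4, which had the lowest p of the list, was at 6.74 ± 0.29. Gclc, Gclm and Gsr were at 1.87 ± 0.18, 0.62 ± 0.11 and 1.19 ± 0.14 (edgeR adjusted p = 2.62e-06, 4.12e-04 and 1.16e-05).

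Genes outside the GST family that are commonly read as NRF2 output were set beside the members. Of 18, CDDO-Me was higher than NASH vehicle in 13 and lower in 2, beside 9.39% higher and 7.24% lower of all tested genes. The median log2 fold change was 1.30. Nqo1, a quinone reductase, rose by 3.21 ± 0.13, Srxn1, which repairs peroxiredoxins, by 2.53 ± 0.16, Ugdh, which makes UDP-glucuronate, by 1.65 ± 0.14 and Txnrd1, a thioredoxin reductase, by 1.41 ± 0.13 (edgeR adjusted p = 1.97e-08, 6.79e-07, 8.90e-06 and 1.41e-05). The 2 lower genes, named after their values were seen, were Nfe2l2, which encodes NRF2 itself, at -0.40 ± 0.11, and the heme oxygenase gene Hmox1 at -0.94 ± 0.17 (edgeR adjusted p = 0.0285 and 0.00218). In NASH vehicle against control 8 were higher and 6 lower, beside 29.6% higher and 30.0% lower of all tested genes. The counts were 13 and 1 both with library totals and on the TPM scale. Hmox1 rose by 3.23 ± 0.18, Srxn1 by 1.74 ± 0.16 and Nqo1 by 1.27 ± 0.13, and Me1, the malic enzyme, was at -2.91 ± 0.17 (edgeR adjusted p of 3.25e-08 to 3.29e-06). In CDDO-Me against control 16 were higher and 1, Me1, lower at -2.18 ± 0.16 (edgeR adjusted p = 3.97e-07), beside 26.2% higher and 23.6% lower of all tested genes.

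The core of the element that NRF2 binds, TGACNNNGC, was searched on both strands of RefSeq promoter windows of GRCm38.p6, each from 250 bases before to 50 bases after a gene's start. Windows were given for 9 of the 10 members, all but Gsta4. Only Gsta3 held a match, while 12.4% of 32851 windows and 14% of 27025 genes did. It lay 121 bases before the Gsta3 start, on the strand of the gene, and is shown in capitals with 25 bases on each side (chr1:21240439-21240497, plus strand):
Gsta3: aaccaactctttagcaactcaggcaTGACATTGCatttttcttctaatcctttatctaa
Gsta3 had the smallest rise of the 10 in CDDO-Me livers. The absence of these letters from the other windows says nothing about sites elsewhere.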

How the data were processed

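Liver RNA of 12 mice was sequenced as poly(A) libraries with paired reads of 75 bp, 4 libraries in each of 3 groups taken from the labels. The deposited tables hold, for 41325 genes, whole read counts (total, unique, exon, junction and intron reads), RPKM and TPM as computed by the authors, and, per the file headers, the fraction of reads that were unique or intronic. The build is GRCm38, per the submitters' processing notes; which tools aligned and counted the reads, and whether strand was used, is not given in the sources used here. Totals were 28161057 to 33852338 reads per library, of which 86.1% to 89.8% were unique. No library duplicated another.

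Total gene reads were fitted in edgeR 4.0.16 (R 4.3.3) by quasi-likelihood over all 12 libraries after TMM scaling of the 16456 genes that passed filterByExpr, run by group with a count minimum of 10, a total minimum of 15 and a large n of 10. Tests were two-sided with Benjamini-Hochberg adjustment at 0.05 over all tested genes, and the script was tested on simulated data. Fold changes use a prior count of 0.125 and log2 CPM a prior count of 2. RPKM was not used. TPM were used for levels between genes and, in limma 3.58.1, as an alternative with pseudocounts of 1 and 0.1. DESeq2 1.42.0, other filters and scalings, unique and exon reads, a replicate block and leaving out each library were the other alternatives; summing near copies and leaving out control 3 with CDDO-Me 4 were added after seeing the data.

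The members and gene lists were chosen with earlier results of these data known. All 10 members are named in each comparison; of the other lists, up to 6 tested genes with the lowest p per comparison and, always, Nqo1, Gclc, Gclm and Gsr. Likeness was ranked among genes with a mean of at least 10 CPM, keeping 5 per member and leaving out the 10 members and predicted genes. Coding sequences and transcripts came from GENCODE and promoters from RefSeq. The list genes Gsta13, Gsta5 and Gstp-ps were not analysed here. Of the genes most like Gsta3 and Gstt3, 1 is not reported here.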

Additional observations from a re-analysis of the deposited data

How the results depend on the processing

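Over the 26 alternatives, 25 of them planned, the count of the 10 genes that were higher in CDDO-Me than in NASH vehicle was 10 in each and the count of lower ones 0, and in CDDO-Me against control the count of higher ones was 7 in each. In NASH vehicle against control the lower count was 3 with library totals and with all 3 TPM settings (log2(TPM + 1), log2(TPM + 0.1) and log2(TPM + 1) with no filter), against 7 with TMM, and in CDDO-Me against control it was 1 with library totals and 0 with the 3 TPM settings, against 3. Both scalings moved the median of all genes, and the share of all genes called under them is not given here. Leaving out 1 library at a time gave 6 to 7 lower genes in NASH vehicle against control and 3 in each case in CDDO-Me against control.

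Gstm1 in NASH vehicle against control reversed to 0.44 in the 3 TPM settings and to 0.23 with library totals. Its call also ended with DESeq2 size factors, no filter, exon reads and the replicate block. In the same comparison Gclm reversed to 0.16 in the 3 TPM settings, and Gsr, not called with TMM, reversed to 0.60 in those settings and 0.42 with library totals. For single genes named in the text, 2167 values kept sign and side of the threshold, 44 lost the call and 11 reversed; among the 10 members in CDDO-Me against NASH vehicle all 264 kept both.

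The replicate numbers did not pair the livers: deviations of same-numbered libraries from their group means correlated at -0.22 to 0.19, over 0.1 in 2 of 12 pairs, and 0 of 12 libraries correlated best with their own number. With the replicate block the counts of higher and lower members were 10 and 0 in CDDO-Me against NASH vehicle, 3 and 6 in NASH vehicle against control, and 7 and 3 in CDDO-Me against control.

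Of the 10 genes, depth is lowest for Gstt3, with 18511 reads over the 12 libraries, 4173 of them unique. Reads shared with near copies limit the levels of Gsta1, Gsta2, Gstp1, Gm3776 and Gstp2. Reads that were not unique also limit Gsta3 and Gstt3, whose shared windows were 0% and 11.5%. Where else those reads were placed is not given.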
